A study of Mus musculus with 183 samples.

Results

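The genes described here are 10 targets of the transcription factor p53 (Cdkn1a, Mdm2, Ccng1, Trp53inp1, Bbc3, Bax, Phlda3, Zmat3, Plk2 and Btg2), taken by name from a count table of 53380 genes. All 10 were found there, and all 10 were also among the 7240 mRNAs with binding values for RNA decay factors. The counts come from 47 libraries of 2 male mouse embryonic stem cell (mESC) lines grown in serum and LIF. Clone 5F carries CreERT2, a Cre recombinase switched on by 4-hydroxytamoxifen (4OHT). It has loxP sites in introns of Skiv2l, around the exons of its catalytic part (Rosa26Cre-ERT2/- Skiv2lfl/fl). Clone 7E carries CreERT2 and BirA, a tagged Skiv2l (3xFLAG-Avi) and a deletion of Aven (Aven-/-). The study's methods describe its Skiv2l as conditional too, although the label of these libraries does not say so. SKIV2L is the helicase that feeds mRNA to the cytoplasmic exosome for 3′–5′ decay, and AVEN is a protein that binds the SKIV2L complex. Each line was sampled before 4OHT (day 0) and at day 4 of treatment with 0.1 µM 4OHT, after 0 (mock, DMSO alone for 6 hr), 120, 240 or 360 min of actinomycin D, which blocks transcription. Each group had 3 libraries, except that 2 were analysed for 120 min at day 0 in clone 5F. The study calls its replicates technical and each genotype is a single clone, so p-values measure the spread between these libraries, and clone and genotype cannot be told apart.

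p53 is held at a low level by the ubiquitin ligase MDM2 and accumulates after DNA damage or other stress, when it switches on genes for cell cycle arrest, apoptosis and its own restraint. Many of these targets make short-lived mRNAs, so that their level follows transcription closely. In mESCs p53 protein is present without added stress.

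The members fall into 4 roles, and their positions are given in GRCm38. For cell cycle arrest, Cdkn1a (ENSMUSG00000023067.13, chr17:29090976-29100727, plus strand) encodes the cyclin-dependent kinase inhibitor p21, and Btg2 (ENSMUSG00000020423.6, chr1:134075170-134079120, minus strand) encodes an antiproliferative protein that recruits deadenylases. Plk2 (ENSMUSG00000021701.8, chr13:110395046-110400844, plus strand) encodes a polo-like kinase. For the restraint of p53, Mdm2 (ENSMUSG00000020184.15, chr10:117688875-117710758, minus strand) encodes its ubiquitin ligase and Ccng1 (ENSMUSG00000020326.7, chr11:40748552-40755311, minus strand) encodes cyclin G1. For apoptosis, Bbc3 (ENSMUSG00000002083.13, chr7:16308393-16318205, plus strand) encodes PUMA and Bax (ENSMUSG00000003873.11, chr7:45461697-45466898, minus strand) encodes the effector that permeabilizes the mitochondrial outer membrane. Phlda3 (ENSMUSG00000041801.5, chr1:135766119-135769136, plus strand) encodes a repressor of AKT signaling. For stress responses, Trp53inp1 (ENSMUSG00000028211.11, chr4:11156431-11174379, plus strand) encodes a p53-induced nuclear protein and Zmat3 (ENSMUSG00000027663.12, chr3:32334792-32366014, minus strand) encodes a zinc finger protein that binds RNA.

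p53 binds a pair of 10-base half-sites, and the only pair matched among the members is shown because it marks Cdkn1a out. RefSeq promoters of 300 bases (GRCm38, 250 bases before to 50 after a start site) were matched by symbol for 8 of the 10 members, all but Trp53inp1 and Zmat3. Both strands were searched for the p53 half-site consensus, and for 2 of them with a spacer of at most 13 bases. Of the 8 members only Cdkn1a held such a pair within 2500 bases of a start site, whereas 1.8% of 27025 genes did. A second Cdkn1a promoter, at chr17:29093519-29093818, held no half-site. The pair lay 58 bases upstream of the first start site, at chr17:29090906-29090937, with the half-sites in capitals and a spacer of 12 bases.
Cdkn1a: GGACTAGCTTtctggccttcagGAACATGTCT
A single half-site stood in the 300-base promoter of 4 of the 8 members, against 9.6% of all genes, and the other 3 members are shown with it in capitals, on the strand of the gene. These lie at chr7:45467075-45467114 (Bax), chr10:117710920-117710959 (Mdm2) and chr11:40755447-40755486 (Ccng1), all on the minus strand.
Bax: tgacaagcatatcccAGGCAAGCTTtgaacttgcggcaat
Mdm2: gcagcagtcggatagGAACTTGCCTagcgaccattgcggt
Ccng1: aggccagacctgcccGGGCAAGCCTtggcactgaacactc
These are matches of letters, and p53 binding was not measured.

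AU-rich elements in 3′ UTRs are known to shorten mRNA half-life, and the nonamer TTATTTATT was therefore searched in the 3′ UTR of each member on the transcript strand. It was present in Mdm2, Plk2 and Trp53inp1 and in 7.5% of 7224 mRNAs with a 3′ UTR. The element is in capitals below.
Mdm2: ggcattgatgTTATTTATTtgcaaataaa
Plk2: aataaactttTTATTTATTacagccccaa
Trp53inp1: acttccccttTTATTTATTtgttttctaa
The pentamer ATTTA, which is contained in the nonamer, was found in 7 of 10 members and in 67.2% of the mRNAs. The 3 members without it were Bbc3, Bax and Phlda3, and the highest count was 8, in Mdm2, Ccng1, Zmat3 and Trp53inp1.

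The libraries held 24540658 to 34208466 counts. Skiv2l, which loses the exons of its catalytic part on 4OHT, was checked first by its count over the whole gene. In clone 7E its mock level was 967.8, 1037.8 and 902.8 normalised read counts at day 0 and 405.5, 389.4 and 367.5 at day 4 (log2 value -1.32, adjusted p = 7.78e-13). In clone 5F it was 4149.6, 4135.7 and 4204.8 at day 0 and 4414.7, 3825.3 and 4161.6 in the libraries labelled day 4 (log2 fold change -0.01, adjusted p = 0.914). The labelled deletion thus did not show in the Skiv2l count of clone 5F, and this clone is called "labelled day 4" throughout. The count of the whole gene need not fall when only some exons are lost, so it cannot decide whether recombination took place. The study reports that mRNAs strongly bound by SKIV2L were stabilized after the knockout. In clone 7E at day 0, Skiv2l was lower than in clone 5F by a log2 value of -2.10 and Aven by -3.90. After actinomycin D, 6 libraries stood apart from both others of their group, with a chi-square per degree of freedom above 50 against each: replicate 1 at 120 min of day 4, replicate 2 at 240 min of day 0 and replicate 3 at 360 min of day 4, in both clones. They held 0.384 to 0.470 of the Trp53 level of the others in their group, 0.638 to 0.777 of the Zmat3 level and 1.19 to 1.25 times the Ccng1 level. Tests of the members over the time course and their half-lives are given with and without these 6 libraries. No mock library was among them.

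In mock-treated cells of clone 7E, 9 of the 10 p53 targets were higher at day 4 than at day 0, and Bax was the exception. Over all 16333 genes tested 20.7% were higher (40.1% in either direction). The median log2 fold change of the members was 0.54, compared with -0.01 for all genes. These values are relative to the median gene of each library. Scaled instead to the ERCC spike-ins, synthetic RNAs added to each sample, the median gene of clone 7E was lower at day 4 by a log2 value of -1.11, and 0 members were higher and 8 were lower, beside 1.59% of all genes higher and 90.1% lower. The ERCC share of counts was 0.640% to 0.659% in these day 4 mock libraries and 0.310% to 0.320% at day 0, and less RNA per cell and fewer cells cannot be told apart. This scaling moves all genes of a library by 1 factor, so it leaves their changes relative to each other nearly as they were.

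Among the arrest genes, Cdkn1a had 324.6, 414.3 and 332.6 normalised read counts at day 0 and 856.8, 843.5 and 913.6 at day 4. The groups did not overlap, and the level was 2.44-fold higher (log2 1.29 ± 0.08 SE, adjusted p = 1.19e-11). Plk2 had 2800.3, 3116.2 and 2747.2 at day 0 and 6374.4, 6218.7 and 5416.7 at day 4, and was 2.08-fold higher (log2 1.06 ± 0.06, adjusted p = 9.53e-13). Btg2 had 1745.1, 1916.3 and 1801.5 at day 0 and 2883.3, 2882.3 and 2669.2 at day 4. It rose 1.54-fold (adjusted p = 2.38e-09). All 3 day 4 libraries lay above all 3 day 0 libraries for each of these genes. How many of all genes separate in this way was not counted.

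Of the genes that restrain p53, Mdm2 rose 1.72-fold, from 6396.7, 6606.7 and 5895.2 to 11323.8, 11458.6 and 9752.7 normalised read counts (log2 0.78 ± 0.06, adjusted p = 8.61e-11). Ccng1, the member with the most counts, rose 1.20-fold, from 15181.3–15852.8 to 17295.4–19758.8 (adjusted p = 0.00012). The apoptosis genes differed from each other. Bbc3 had 512.2, 647.9 and 571.3 at day 0 and 823.2, 832.0 and 837.2 at day 4, a 1.44-fold rise (adjusted p = 6.32e-06). Bax had 3404.8–3622.4 at day 0 and 3297.8–3481.9 at day 4, so that the groups overlapped (log2 -0.04 ± 0.05, adjusted p = 0.513). Phlda3 rose 1.47-fold, from 2433.0, 2617.9 and 2438.1 to 3780.7, 3583.1 and 3622.9 (adjusted p = 5.29e-09). Trp53inp1 rose 1.25-fold (adjusted p = 7.14e-06). Zmat3 was called with the smallest change, 1.10-fold (adjusted p = 0.0342), and its call was lost without replicate 1 (adjusted p = 0.0902) or without replicate 3 (0.38).

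The RNA of p53 itself, Trp53, was 1.20-fold higher at day 4 in clone 7E (adjusted p = 0.00209) and likewise in clone 5F (1.20-fold, adjusted p = 0.00258). Its partner in inhibition Mdm4 (log2 -0.05, adjusted p = 0.458) and the p53 phosphatase gene Ppm1d (0.08, adjusted p = 0.32) did not pass the test in clone 7E.

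**Figure D1:**
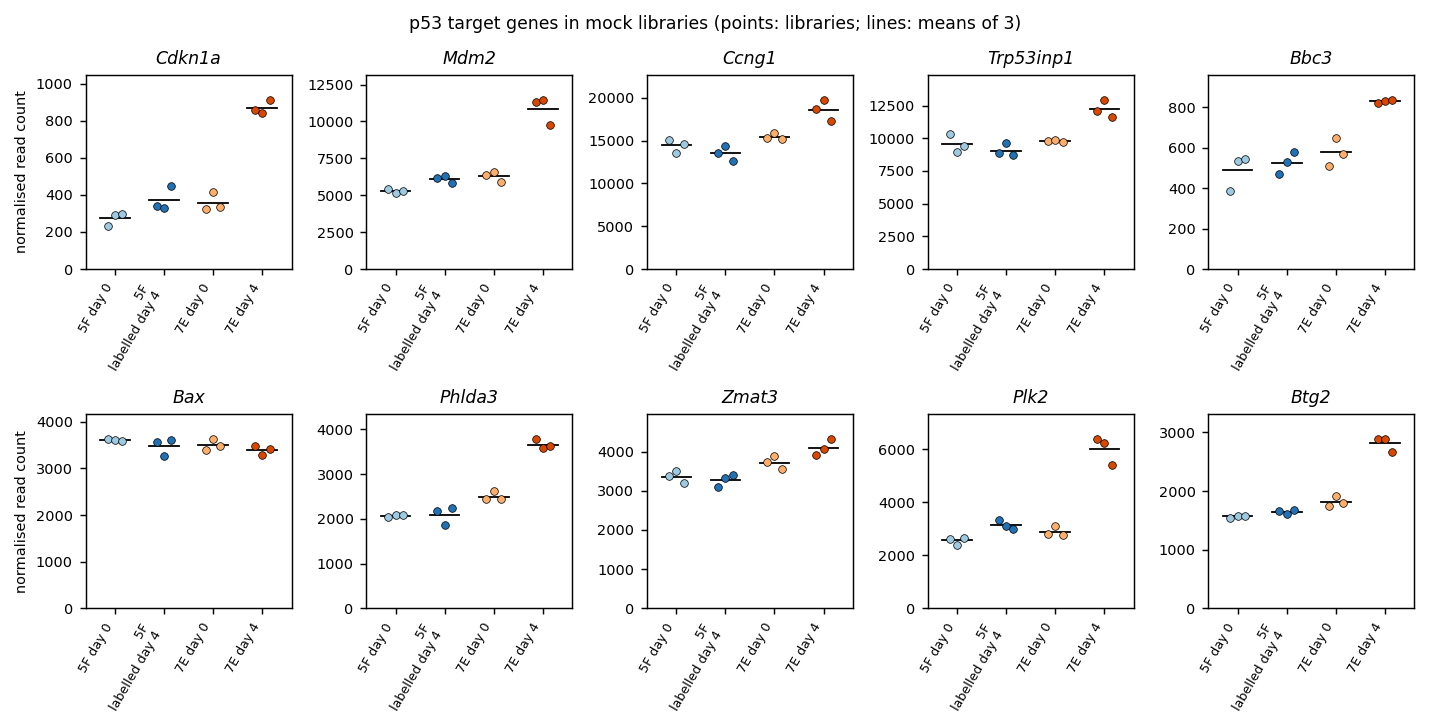
Mock levels of the 10 p53 target genes in normalised read counts (linear axes from 0), by clone and day of 4OHT. Points are libraries and lines are means of 3. The 7E day 4 libraries lie above the 7E day 0 libraries for 9 genes and overlap them for Bax. Of all genes tested 20.7% were called higher there (edgeR). Counts are scaled to the median gene, and scaled to ERCC spike-ins 8 of the 10 were lower at 7E day 4.

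In clone 5F, where the Skiv2l count did not fall, 3 of 10 members were higher in the libraries labelled day 4. This compares with 12.8% of the 16349 genes tested. Plk2 had 2631.6, 2399.7 and 2650.3 normalised read counts at day 0 and 3314.7, 3095.9 and 2996.0 at labelled day 4 (1.23-fold, adjusted p = 0.000335). Mdm2 went from 5428.2, 5136.5 and 5283.3 to 6185.1, 6302.9 and 5816.6 (1.16-fold, adjusted p = 0.0021). Cdkn1a went from 232.4, 291.1 and 296.2 to 338.7, 328.7 and 450.4 (1.36-fold, adjusted p = 0.00644), and its call was lost without replicate 1 (adjusted p = 0.0528) or replicate 3 (0.0568). Without replicate 2 the count of members called was 5, Ccng1 and Trp53inp1 being lower. The other 7 members lay between log2 values of -0.10 and 0.10. With ERCC scaling 2 members were called higher and the median of all genes was -0.07. Of all genes called with that scaling, 31.1% were higher.

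The response of clone 7E was larger than that of clone 5F for 7 of 10 members in a test of the difference itself, over the 12 mock libraries. In the same test 6.65% of 17209 genes had a larger response in clone 7E. The log2 difference (7E minus 5F) was 0.84 ± 0.16 (SE) for Cdkn1a, 0.76 ± 0.09 for Plk2 and 0.58 ± 0.08 for Mdm2. It was 0.56 for Btg2, 0.54 for Phlda3, 0.40 for Trp53inp1 and 0.36 for Ccng1, with adjusted p-values up to 0.00166. Bbc3 (0.42, adjusted p = 0.059), Zmat3 (0.17, adjusted p = 0.126) and Bax (0.01, adjusted p = 0.963) did not pass. With the replicate number as a block Bbc3 passed too (0.42, adjusted p = 0.0224), beside 6.22% of all genes. For Trp53 itself the difference was -0.0005 ± 0.1007, which did not pass either (adjusted p = 0.999). With ERCC scaling all 10 differences were negative and 9 were called lower, beside a median of all genes of -1.03 and 83.2% of genes lower. The count of all genes called was 2055, and 753 without replicate 1, when Ccng1 and Trp53inp1 were no longer called.

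At day 0, before any 4OHT, 6 of 10 members were higher in clone 7E than in clone 5F, compared with 20.0% of 16299 genes. They were Cdkn1a (1.31-fold, adjusted p = 0.00432), Phlda3 (1.20-fold, adjusted p = 4.22e-05), Mdm2 (1.19-fold, adjusted p = 5.94e-05), Btg2 (1.16-fold, adjusted p = 0.000999), Plk2 (1.13-fold, adjusted p = 0.0088) and Zmat3 (1.11-fold, adjusted p = 0.0112). The Plk2 call was lost without replicate 2 (log2 0.071, adjusted p = 0.211), and the Zmat3 call without replicate 1 (adjusted p = 0.0935) or replicate 3 (0.056). Same-numbered libraries of the clones deviated together here, and with the replicate number as a block 8 members were called, Ccng1 (adjusted p = 1.74e-05) and Bbc3 (0.000504) in addition, while 24.7% of all genes were then higher. With ERCC scaling the median of all genes was -0.17, 0 members were higher and 1 was lower (Bax), beside 9.93% and 38.6% of all genes, and Ccng1, Trp53inp1 and Zmat3 changed sign. Trp53 (1.27-fold), Mdm4 (1.12-fold) and Ppm1d (1.20-fold) were higher in clone 7E as well with median scaling. This comparison shares its libraries with the previous ones.

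**Figure D2:**
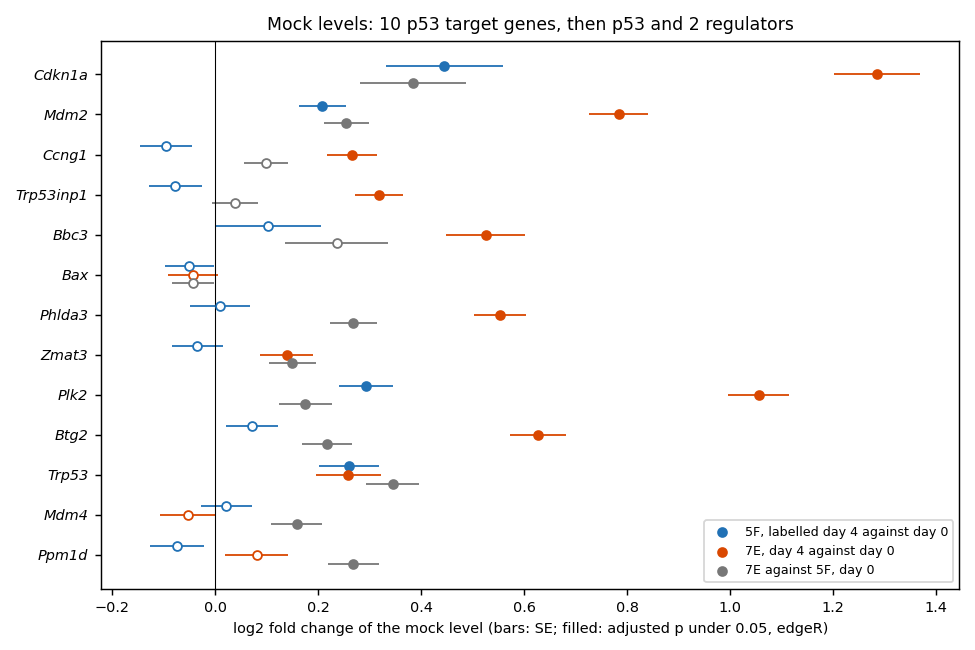
Log2 fold changes of mock levels (x axis) for the 10 p53 targets, Trp53, Mdm4 and Ppm1d in 3 comparisons, with SE bars and filled points where the adjusted p was under 0.05 (edgeR). The largest values are those of Cdkn1a (1.29) and Plk2 (1.06) in clone 7E. Values are relative to the median gene, and with ERCC scaling the 7E day 4 values drop with the median of all genes, -1.11.

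In response to 120 min of actinomycin D all 10 members were lower than in mock libraries in every clone and day. This was also so for 76.8% of all genes in clone 5F at day 0, 80.7% at labelled day 4, 80.8% in clone 7E at day 0 and 83.8% at day 4, so that the count of members is not far from the background. Their depth differed from most genes at day 4 of clone 7E, where 9 of 10 members fell by more than the median gene (median log2 value -1.43 for members and -0.80 for all genes). At day 0 of either clone 4 of 10 did, with medians of -0.73 (5F) and -0.62 (7E). At labelled day 4 of clone 5F 6 did, with a median of -1.12. Without the 6 libraries that stood apart all 10 members were likewise lower in every clone and day. With ERCC scaling 8 were called in clone 5F at day 0, without Bax (adjusted p = 0.0653) and Zmat3 (0.148), beside 58.6% of all genes lower.

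**Figure D3:**
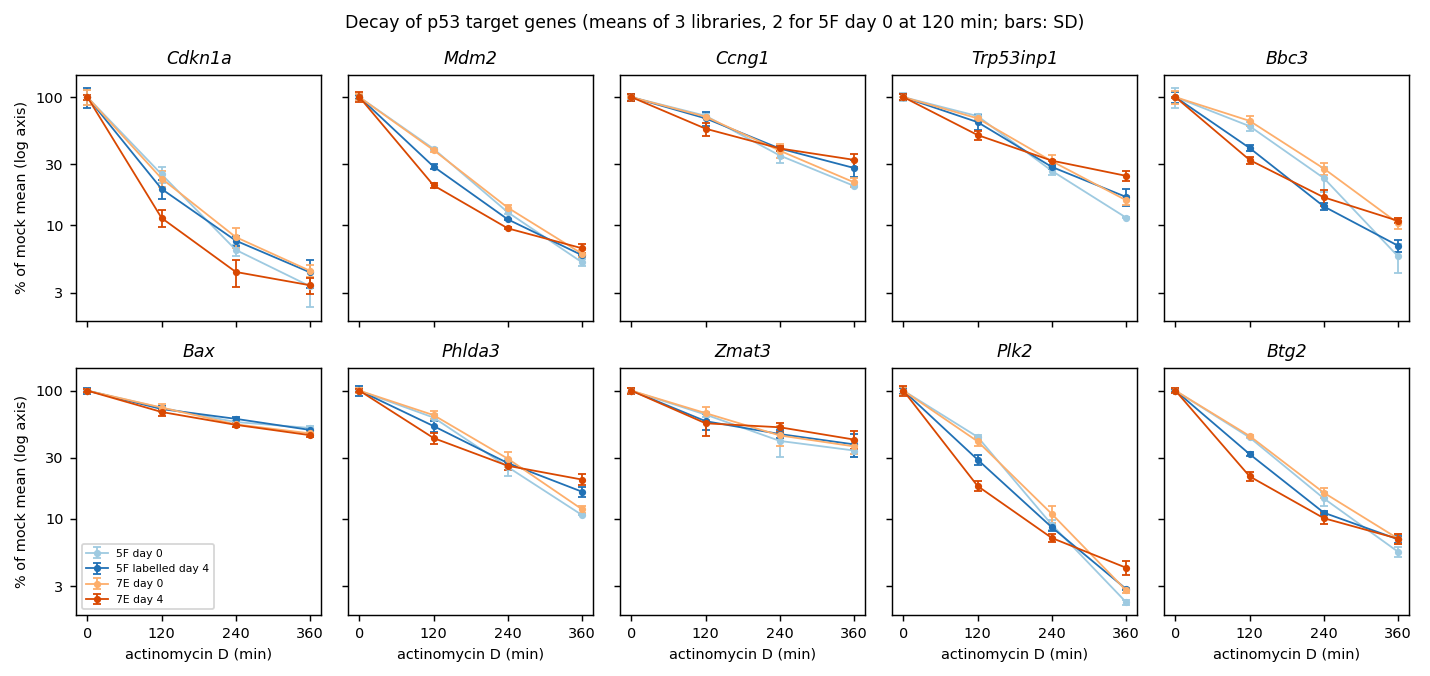
Level of each p53 target as a percent of its mock mean (log axis) against minutes of actinomycin D, by clone and day. Points are means of 3 libraries (2 for 5F day 0 at 120 min) and bars are SD. At 120 min Mdm2 is at 20.5% and Plk2 at 18.1% in 7E day 4, below their other groups, and the Bax curves lie close together.

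The percentage of the mock level left at 120 min shows where the clones and days separated. For Mdm2 it was 39.6% ± 0.85 (SD, n = 2) in clone 5F at day 0, 28.7% ± 1.24 (n = 3) at labelled day 4, 38.6% ± 1.09 in clone 7E at day 0 and 20.5% ± 0.76 at day 4. The day 0 values of both clones lay close together, and both labelled day 4 values lay below them. For Plk2 the values were 43.6%, 29.0%, 40.2% and 18.1% in the same order, and for Btg2 43.2%, 32.0%, 44.3% and 21.5%. For Cdkn1a they were 25.0%, 19.3%, 23.2% and 11.4%, and for Bbc3 59.4%, 40.1%, 65.3% and 32.4%. For Bax they were 73.5%, 71.9%, 73.8% and 68.2%. The levels themselves were compared at 120 min in clone 7E. Mdm2 had 2486.7, 2459.2 and 2356.8 normalised read counts at day 0 and 2298.7, 2240.1 and 2135.2 at day 4, although its mock level was 1.72-fold higher at day 4. Btg2 had 803.4, 829.3 and 788.5 at day 0 and 611.7, 553.3 and 645.9 at day 4, and Bbc3 had 377.9, 411.5 and 341.1 and then 270.2, 251.8 and 284.7. Mdm2, Btg2 and Bbc3 each lay lower at day 4 without overlap of the libraries. Levels are given for these members only, and not all members went this way. For Cdkn1a the mean level at 120 min was higher at day 4 than at day 0. The difference at 120 min was not tested, and such separation was not counted over all genes.

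By 360 min this order had turned for several members. Phlda3 kept 10.7% ± 0.05 of its mock level in clone 5F at day 0, 16.3% ± 1.35 at labelled day 4, 11.9% ± 0.83 in clone 7E at day 0 and 20.3% ± 1.98 at day 4. Trp53inp1 kept 11.5%, 16.7%, 15.7% and 24.4%, and Ccng1 20.3%, 28.0%, 21.7% and 32.5%. Plk2 kept 2.25%, 2.85%, 2.78% and 4.17%. The curves of day 4 were thus steeper at first and flatter later.

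A single slope over all 4 times found 0 of 10 members changed from day 0 to day 4 in clone 5F, in clone 7E, or between the clones at day 0 (edgeR). The shares of all genes called were 0.196%, 0.896% and 0.0338%, and 3 members had an unadjusted p under 0.05 in each comparison. DESeq2 called 0, 2 and 0 members and limma 0 in each, and without the 6 libraries that stood apart edgeR called 0 in each. Those 2, Ccng1 and Trp53inp1, had the lowest adjusted p in clone 7E with edgeR (0.0758 and 0.0677), both toward slower decay.

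The slope was then taken over 0–120 min and over 120–360 min. Both windows are reported after seeing the data, and the earlier one was chosen then. From 0 to 120 min in clone 7E, 7 of 10 members declined faster at day 4, compared with 0.543% of 16946 genes. The change in slope, in log2 per hour with its SE, was -0.58 ± 0.06 for Plk2 (adjusted p = 2.91e-05), -0.52 ± 0.05 for Btg2 (6.6e-06), -0.51 ± 0.09 for Cdkn1a (0.00687), -0.51 ± 0.06 for Bbc3 (0.000285) and -0.46 ± 0.05 for Mdm2 (2.62e-05). Phlda3 (-0.30) and Trp53inp1 (-0.22) also passed. Ccng1 (-0.15, adjusted p = 0.166), Zmat3 (-0.13, adjusted p = 0.481) and Bax (-0.06, adjusted p = 0.614) did not. The mock libraries enter both this slope and the mock comparison above, so the results are not independent of each other. The count was 8 without the libraries that stood apart, 4 without replicate 2 or replicate 3, and 4 with ERCC scaling.

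From 120 to 360 min in clone 7E, 7 of 10 members declined more slowly at day 4, compared with 0.840% of 16557 genes. The change was 0.43 ± 0.05 log2 per hour for Plk2 (adjusted p = 1.04e-05), 0.34 ± 0.04 for Phlda3 (2.82e-05), 0.27 ± 0.03 for Trp53inp1 (2.25e-05) and 0.26 ± 0.04 for Mdm2 (0.000326). Bbc3 and Btg2 each changed by 0.26 and Ccng1 by 0.22. Cdkn1a (0.16 ± 0.08, adjusted p = 0.445), Zmat3 (0.11, adjusted p = 0.411) and Bax (0.02, adjusted p = 0.856) did not pass. Cdkn1a was at 25.7–34.0 normalised read counts by 360 min of day 4, the lowest level of the members. The count was also 7 without the libraries that stood apart, 5 to 7 without 1 replicate and 5 with ERCC scaling. Both windows use the 120 min libraries, so that a low value there moves them in opposite directions.

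In clone 5F the same windows gave fewer calls. From 0 to 120 min 3 members declined faster at labelled day 4, compared with 0.0519% of 17328 genes. These were Plk2 (-0.30 ± 0.05 log2 per hour, adjusted p = 0.0163), Mdm2 (-0.23 ± 0.04, adjusted p = 0.0125) and Btg2 (-0.22 ± 0.04, adjusted p = 0.0343). From 120 to 360 min 2 declined more slowly, Plk2 (0.23 ± 0.03, adjusted p = 0.00705) and Phlda3 (0.21 ± 0.04, adjusted p = 0.0223), compared with 0.0177% of 16988 genes. Without the libraries that stood apart the counts were 3 and 3. Leaving out any replicate brought them to 0 or 1 and to 0. Between the clones at day 0, 0 members passed in either window (edgeR; 0.174% and 0.138% of all genes). Whether the windows differ between clones was not tested, and no window was tested with the replicate number as a block.

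**Figure D4:**
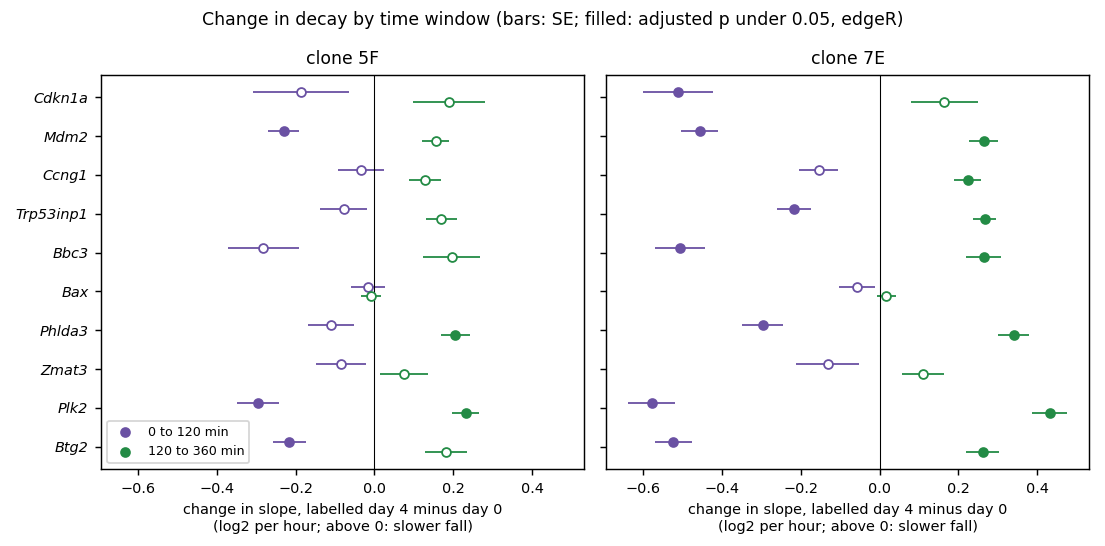
Change in slope from day 0 to labelled day 4 (log2 per hour, x axis) over 0–120 min and 120–360 min, for clone 5F and clone 7E, with SE bars and filled points where the adjusted p was under 0.05 (edgeR). In clone 7E the early changes lie below 0 and the late ones above 0 for all 10 genes with scaling to the median gene. With ERCC scaling Bax changes sign in both windows of clone 7E.

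The p53 targets had short half-lives over the whole course. Over the first 120 min at day 0, however, only 4 of 10 members fell by more than the median gene in either clone. The median log2 values there were -0.73 for members and -0.79 for all genes in clone 5F, and -0.62 and -0.80 in clone 7E. At day 0 the half-life, from a slope over all times, was below the median of all genes (277.9 min in clone 5F and 275.9 min in clone 7E) for 9 of 10 members. Plk2 was shortest, at 64.9 min in clone 5F (62.6 to 67.5 from 1 SE of the slope, n = 11) and 69.2 min in clone 7E (67.0 to 71.6, n = 12). It was followed by Cdkn1a (73.7 and 81.6 min), Mdm2 (83.2 and 88.0), Btg2 (85.6 and 92.8) and Bbc3 (88.8 and 109.5). The intervals of Mdm2, Btg2 and Bbc3 overlapped in clone 5F. Phlda3 (110.6 and 116.1 min) and Trp53inp1 (112.8 and 131.5) were intermediate, overlapping each other in clone 5F. Ccng1 (152.8 and 159.8) and Zmat3 (223.2 and 243.4) were longer, and Bax was longest, at 365.2 and 320.2 min. The half-lives of Ppm1d (73.9 and 87.0 min) lay among those of the short-lived members, whereas that of Mdm4 was 184.8 and 186.6 min. The Trp53 half-life was poorly determined, with 348.9 to 1004.1 min from 1 SE in clone 5F at day 0.

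At day 4 of clone 7E the half-life of Phlda3 was 157.3 min (144.5 to 172.6), that of Trp53inp1 177.1 (165.7 to 190.3) and that of Ccng1 222.7 (204.7 to 244.3), each above its day 0 interval. In clone 5F at labelled day 4 these were 136.6, 134.5 and 190.4 min. Plk2 (79.5 min), Mdm2 (93.45), Btg2 (95.5) and Zmat3 (306.3) at day 4 of clone 7E also lay above their day 0 intervals. The intervals span 1 SE of the slope on each side, and the slope test over all times called no member. Cdkn1a had 75.5 min at day 4 of clone 7E, with an interval of 66.8 to 86.8 that covered its day 0 value. A half-life assumes 1 slope. Without the 6 libraries that stood apart the 40 half-lives were 0.936 to 1.041 times these values. Without the mock libraries they were 0.794 to 1.90 times as long, and without the 360 min libraries 0.703 to 1.29 times.

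Binding of decay factors was measured by CRAC, which crosslinks a tagged protein to RNA and sequences the bound fragments. The deposited values are the authors' pooled ratios, the shares of MTR4 (nuclear exosome), SKIV2L (cytoplasmic 3′–5′ decay) and XRN1 (5′–3′ decay) that sum to 1 for each mRNA, and AVEN relative to that sum. They have no replicates, and their depth per mRNA is unknown. XRN1 had the largest share on 6 members, Bbc3 (0.719, percentile 98.7 of 7240 mRNAs), Cdkn1a (0.630, percentile 95.5), Bax (0.612, percentile 94.4), Phlda3 (0.513), Zmat3 (0.470) and Mdm2 (0.387), compared with a median of 0.337. MTR4 had the largest share on the other 4, Btg2 (0.643, percentile 91.6), Plk2 (0.576), Trp53inp1 (0.455) and Ccng1 (0.385), compared with a median of 0.319. SKIV2L had the largest share on no member. On how many of all mRNAs each factor was largest was not counted, so these counts have no background. Of the 10 members, 6 lay above the median of all mRNAs for XRN1, 6 for MTR4 and 2 for SKIV2L. The highest SKIV2L values were 0.328 on Ccng1 and 0.310 on Phlda3, and the lowest was 0.075 on Btg2 (percentile 4.2). The SKIV2L median was 0.177 for members and 0.267 for all mRNAs.

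AVEN binding separated the members into 2 ranges. It was 0.840 on Phlda3 (percentile 98.5), 0.614 on Ccng1, 0.608 on Mdm2 and 0.597 on Plk2, compared with a median of 0.295. The other 6 members lay between 0.116 (Cdkn1a) and 0.217 (Zmat3). Relative to the median gene, all 4 members with high AVEN binding rose in clone 7E at day 4, as did 5 of the 6 with low binding. Of all genes 20.7% were higher there, and with ERCC scaling 0 members were higher and 8 lower. After division by mRNA abundance, 8 of 30 shares of MTR4, SKIV2L and XRN1 moved by over 0.05, with extremes of 0.085 and -0.11. On which members each factor was then largest was not counted. Per length, the authors' RPKM in the XRN1-tagged line ranged from 3.63 for Cdkn1a to 101.2 for Ccng1. Bax (66.9) and Mdm2 (50.1) followed Ccng1 on this scale.

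**Figure D5:**
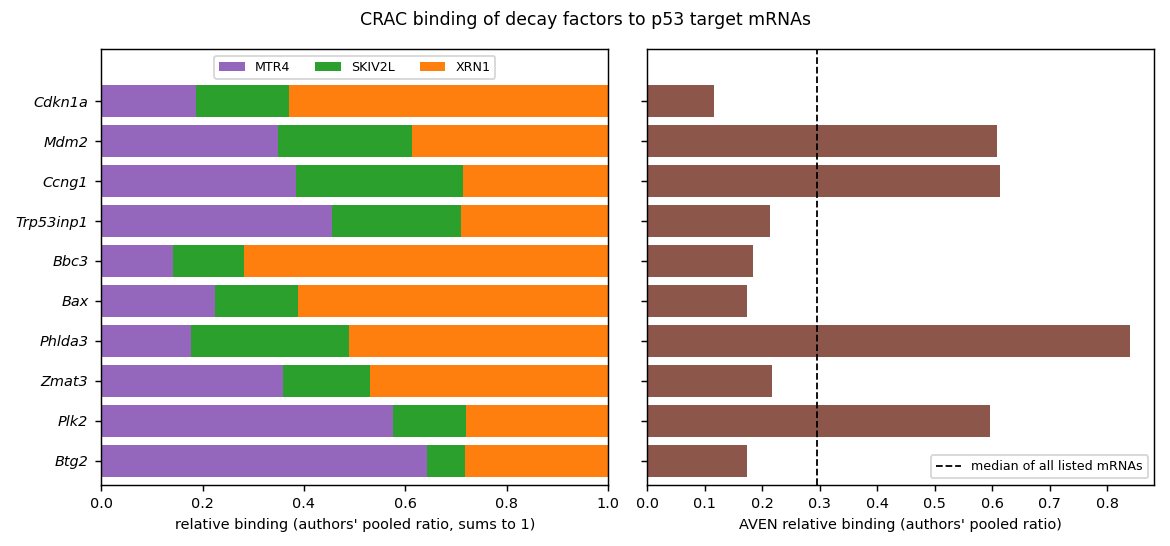
CRAC binding of decay factors to the 10 p53 target mRNAs, as the authors' pooled ratios (x axes) without replicates. On the left the shares of MTR4, SKIV2L and XRN1 sum to 1, and on the right AVEN binding is shown with the median of all listed mRNAs (0.295, dashed). Phlda3, Ccng1, Mdm2 and Plk2 lie above that median.

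Other genes of the p53 pathway were taken from lists chosen with earlier results of these data known. Of 48 other p53 targets, 23 were higher and 7 lower in mock libraries of clone 7E at day 4, with a median log2 value of 0.15, beside 20.7% of all genes higher and 19.4% lower. The genes named from these lists are those with the largest changes among called genes with a mean of at least 100 counts. The first was Thbs1, the gene of the matrix protein thrombospondin 1, which had 527.1, 557.0 and 496.8 normalised read counts at day 0 and 1827.3, 1774.4 and 1655.4 at day 4 (3.32-fold, adjusted p = 7.96e-16). Of 26 genes in a list of p53 and its regulators, 6 were higher and 2 lower, with a median of -0.03, a share of higher genes near that background. This list holds Trp53 itself, and Ppm1d is in both lists. Cdkn2a, whose product ARF inhibits MDM2, had 102.2, 80.1 and 80.6 normalised read counts at day 0 and 242.9, 230.1 and 248.2 at day 4 (2.74-fold, adjusted p = 1.42e-09). ARF and p16 share this gene and were not told apart. With ERCC scaling the median of all genes in this comparison was -1.11, as above. In clone 5F, 7 other targets were higher and 12 lower of 47, beside 12.8% of all genes higher and 11.6% lower. In the list of p53 and its regulators 6 were higher and 1 lower there. Cdkn2a rose 1.61-fold there (adjusted p = 0.000494), while Dram1, an autophagy gene (0.67-fold, adjusted p = 0.00425), and Chek2, a checkpoint kinase (0.74-fold, adjusted p = 9.05e-07), were lower. Between the clones at day 0, 24 other targets were higher and 7 lower in clone 7E (20.0% and 19.7% of all genes), and the named genes were Thbs1 (0.43-fold), Slc19a2 (1.85-fold) and Hipk2 (1.78-fold). The response differed between the clones for 18 other targets toward clone 7E and 1 toward clone 5F (6.65% and 5.29% of all genes), among them Thbs1 (log2 1.45) and Sfn (1.21).

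The time course of these lists was compared in the same way. From 0 to 120 min in clone 7E 7 of 48 other targets declined faster at day 4 and 0 more slowly, and from 120 to 360 min 15 declined more slowly and 0 faster (background 0.543% and 0.840%). Over all times 5 declined more slowly in clone 7E, among them Tap1 (0.19 log2 per hour) and Ptprv (0.19). In the list of p53 and its regulators Trp73, the p53 paralog p73, changed by 0.30 (adjusted p = 0.0124). Ercc5 was the 1 other target called in clone 5F (0.08, adjusted p = 0.0219). At 120 min of actinomycin D the deepest declines in these lists were those of Gadd45a (log2 -2.17 to -2.28 over the 4 groups) and Plk3 (-2.07 to -2.27). With them were Rpl11 (-2.11 and -1.94) at day 0, Ppm1d (-1.78) in clone 5F at labelled day 4 and Polk (-2.00) in clone 7E at day 4. Rpl11 is a ribosomal protein gene with many processed copies. Reads shared with such copies are dropped when only unique alignments are counted, so its count may not measure the whole mRNA.

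Markers of cell state moved along with these groups, and their part in the result was not tested. The summed level of 12 pluripotency markers was 4487–4597 CPM (counts scaled to the library total) in clone 7E at day 0 and 3795–3855 at day 4, and 9 of the 12 were lower. In clone 5F it was 4989–5008 and 4690–4762. The sum of 10 primitive endoderm markers was 435.3–454.8 and 602.5–688.6 in clone 7E, and 1894–1954 and 1776–1913 in clone 5F. For 6 trophoblast markers it was 81.2–83.9 and 117.5–118.3 in clone 7E. In the mock test of clone 7E 5 of 10 primitive endoderm and 4 of 5 tested trophoblast markers were higher. The shares of all genes were 20.7% higher and 19.4% lower there, and 12.8% higher in clone 5F. The 4 neural markers summed to 168.9–181.6 and 225.5–241.3 in clone 7E, with 1 higher and 2 lower. Fibroblast markers (7 genes) rose from 1.97–2.52 to 5.12–6.24 and markers of 2-cell-like cells (6 genes) from 1.03–1.20 to 5.39–7.55 in clone 7E, with all 3 tested genes of each list higher. In clone 5F the latter went from 2.14–2.75 to 7.56–8.87 and 5 of 5 tested were higher, whereas 1 of 3 fibroblast markers was. The fibroblast genes Lum and Postn were at 0 in clone 7E at day 0. All 12 pluripotency markers were detected in every group.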

How the data were processed

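Counts of 47 RNA-seq libraries (rRNA-depleted, not strand-specific, ERCC spike-ins added) were used. The authors aligned reads to GRCm38 with STAR, counted unique alignments per gene, and deposited raw counts. They also deposited pooled CRAC ratios, RPKM values and half-lives (min, a score that can be negative). Their fold changes and adjusted p-values were not used, and 0 per-sample columns were left unused. The labels and the methods give the dose of actinomycin D in different units, and it is not stated here.

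Here DESeq2 size factors were computed separately for each time of actinomycin D, and the scaled counts of a time were then multiplied by its spike-in factor (1, 0.649, 0.531 and 0.438, from 34 ERCC sequences with a mean above 50). Tests were edgeR quasi-likelihood tests (edgeR 4.0.16, R 4.3.3, filterByExpr) with Benjamini-Hochberg adjustment over all genes and a threshold of 0.05. Decay changes were differences of slopes on hours. Half-lives came from the slope of ln(normalised count + 1) on minutes. Alternatives were TMM, each library's own ERCC counts, DESeq2 1.42.0, limma 3.58.1 (trend), filters, a replicate block, leaving out replicates or times, and, added after seeing the data, the early window and leaving out 6 libraries. Scripts were tested on simulated data.

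The named genes were the members, Trp53, Mdm4 and Ppm1d, and the 3 largest changes per comparison of 2 p53 lists among genes with a mean of at least 100 counts, 1 of which is not reported here. Members and lists were chosen with earlier results of these data known. Same-numbered libraries deviated together between the clones (deviations correlated at 0.189 to 0.444 in mock libraries of day 0, at 0.218, 0.483 and 0.439 in those of day 4, and at 0.116 to 0.822 over 11 pairs of day 0), but not between days in mock libraries (-0.397 to -0.04). After actinomycin D the correlations between days were 0.058 to 0.604 in clone 5F and -0.294 to 0.627 in clone 7E. No replicate pair was a duplicate (chi-square per degree of freedom 3.20 to 131.5). Reference sequences were RefSeq promoters and Gencode M21 transcripts of GRCm38. For count data, total counts of 24540658 to 34208466 per library set the counting error, and every member had at least 16 counts in each library.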

Additional observations from a re-analysis of the deposited data

Results flagged for a closer look

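The mock response to 4OHT differed between the clones, by a test of the difference itself (edgeR, 12 mock libraries), for 7 of the 10 p53 targets. The differences are 7E minus 5F on the log2 scale relative to the median gene, and with ERCC scaling each was negative, beside a median of all genes of -1.03. For Cdkn1a the difference was 0.84. For Plk2 it was 0.76. For Mdm2 it was 0.58. For Btg2 it was 0.56. For Phlda3 it was 0.54. For Trp53inp1 it was 0.40, and for Ccng1 0.36.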

How the results depend on the processing

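Over the alternatives, 1483 of 1628 values of single members kept their direction and their side of the threshold, 50 lost and 29 gained a call, and 66 changed sign. The causes were not tested. Scaling each library to its own ERCC counts moved the median of all genes. The log2 values that changed sign were, for the mock change in clone 7E, -0.32 (Mdm2), -0.83 (Ccng1), -0.78 (Trp53inp1), -0.57 (Bbc3), -0.55 (Phlda3), -0.96 (Zmat3), -0.044 (Plk2) and -0.47 (Btg2). In clone 5F Phlda3 was at -0.061. For the clone difference at day 0 they were -0.060 (Ccng1), -0.12 (Trp53inp1) and -0.013 (Zmat3), with 1 member called. For the clone difference in response they were -0.19 (Cdkn1a), -0.46 (Mdm2), -0.67 (Ccng1), -0.64 (Trp53inp1), -0.61 (Bbc3), -1.02 (Bax), -0.48 (Phlda3), -0.86 (Zmat3), -0.27 (Plk2) and -0.48 (Btg2). In decay, in log2 per hour, Bax was at 0.018 in clone 7E over all times, 0.012 in clone 5F and -0.0033 in clone 7E over 120–360 min, 0.054 in clone 7E over 0–120 min and -0.054 between clones over 0–120 min, where Phlda3 was at -0.025, Zmat3 at -0.032 and Btg2 at -0.037. Members called with this scaling were 2 in clone 7E over all times, 1 in each window of clone 5F and 4 in clone 7E over 0–120 min.

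Other settings changed fewer results. With TMM, Bax decay in clone 5F was 0.0008. Without the 360 min libraries, decay changes were, in clone 5F, -0.047 (Mdm2), -0.18 (Bbc3), 0.021 (Bax), -0.022 (Plk2) and -0.094 (Btg2), and in clone 7E -0.14 (Mdm2), -0.19 (Bbc3), -0.047 (Phlda3), -0.16 (Plk2) and -0.17 (Btg2). Without the mock libraries 2 members were called in clone 5F and 7 in clone 7E, and Cdkn1a (0.16) and Bax (0.017) changed sign in clone 7E. DESeq2, or all libraries in 1 fit, called 2 in clone 7E. Without the 6 libraries that stood apart, Btg2 decay in clone 7E was -0.012, Bax in clone 5F over 0–120 min was 0.0040, and 1 member (Trp53inp1) was called between clones over 120–360 min.

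Leaving out 1 replicate changed signs near 0. The mock log2 change ranged from -0.0811 to 0.0028 for Bax in clone 7E, from -0.0390 to 0.0917 for Phlda3 and -0.0939 to 0.0049 for Zmat3 in clone 5F, and from -0.0093 to 0.0954 for Trp53inp1 between clones at day 0. The clone difference in response was -0.0155 to 0.0293 for Bax. Decay over all times ranged from -0.0140 to 0.0078 (Bax) and -0.0267 to 0.0630 (Bbc3) in clone 5F, and from -0.0178 to 0.0065 (Bax) and -0.0030 to 0.0215 (Btg2) in clone 7E. Over 0–120 min it ranged in clone 5F from -0.0391 to 0.0304 (Bax) and -0.0705 to 0.0073 (Ccng1), and between clones from -0.0148 to 0.0134 (Bax), -0.0433 to 0.0238 (Ccng1), -0.0394 to 0.0072 (Mdm2) and -0.0553 to 0.0038 (Trp53inp1). Over 120–360 min it was -0.0266 to 0.0147 (Bax, clone 5F), -0.0058 to 0.0470 (Bax, clone 7E) and -0.0403 to 0.0427 (Zmat3, between clones). The members called were up to 5 for the mock change in clone 5F, 0 to 1 over 0–120 min and 0 over 120–360 min in clone 5F, and 4 to 7 over 0–120 min in clone 7E.

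With the replicate number as a block, 8 members rather than 6 were called between clones at day 0, where the numbers paired the libraries. In the difference in response the numbers paired the clones at both days but not the days (6 of 12 pairs over 0.1), and the block added Bbc3 (adjusted p = 0.0224). In the mock change of either clone the samples share only a number (0 of 3 pairs over 0.1 in each), and the block removed the Zmat3 call in clone 7E (adjusted p = 0.0768).

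Counts over all genes moved by more than 1.5 times as follows. The mock change in clone 5F went from 3998 to 1862 without replicate 1 and 1962 without replicate 3, that in clone 7E from 6551 to 14976 with own ERCC counts and 4320 without replicate 1, and the difference in response from 2055 to 14373, 753 without replicate 1 and 1347 without replicate 3. Decay in clone 5F went from 35 to 19 with own ERCC counts, 10 with limma, 2 to 4 without 1 replicate and 14 without mock. Decay in clone 7E went from 156 to 270 with DESeq2, 26 to 51 without 1 replicate, 247 with all libraries, 237 without mock and 84 without 360 min. Between clones it went from 6 to 2 with own ERCC counts, 37 with DESeq2, 3 with no filter, 0 without 1 replicate, 23 without mock, 1 without 360 min and 17 without the 6 libraries. Over 120–360 min clone 5F went from 14 to 6 with own ERCC counts and 0 to 8 without 1 replicate, clone 7E from 237 to 46 and 36 to 78, and the clones' difference from 23 to 5, 0 to 10, and 135 without the 6 libraries. Over 0–120 min clone 7E went from 218 to 400 with own ERCC counts, 61 without replicate 2, 83 without replicate 3 and 399 without the 6 libraries. The clones' difference there went from 30 to 17 without replicate 2.

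Own ERCC counts also moved the share of calls that were higher, from 52.4% to 31.1% in mock clone 5F, 51.6% to 1.7% in mock clone 7E, 50.3% to 20.5% between clones and 55.7% to 0.4% for the difference in response. In decay it went from 68.6% to 84.2% (clone 5F), 45.5% to 72.4% (clone 7E) and 83.3% to 50% (between clones) over all times, from 86.2% to 98.1%, 57.8% to 96.2% and 66.7% to 55.2% over 0–120 min, and from 58.6% to 45.7% (clone 7E) and 60.9% to 20% (between clones) over 120–360 min. Half-lives moved by more than their interval in 35 of 40 cases without 360 min, 37 without mock, 8 with a pseudocount of 10, 1 with own ERCC counts, 2, 2 and 5 without replicate 1, 2 and 3, 3 against the authors' deposited half-lives, and 0 with TMM or without the 6 libraries.

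Depth limits Cdkn1a most, with as few as 16 counts in a library at 360 min. A drop in all RNA cannot be told from a change in cell number, and clones cannot be told from genotypes.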

Other observations

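The levels of Cdkn1a and Mdm2 were also compared with all genes that had a mean of at least 100 counts, as a description. Over the 47 libraries, which share the fall after actinomycin D, the 3 genes most like Cdkn1a among 10587 were Fzd10, a WNT receptor (Pearson r = 0.988 of log2 levels), Susd6 (0.986) and Tsc22d2 (0.984). Those most like Mdm2 were Btg2 (0.995), Chd1, a chromatin remodeller (0.993), and Plk2 (0.992). So 2 of the 3 nearest genes of Mdm2 were themselves p53 targets of the list. Bax was the member least like either (0.900 with Cdkn1a and 0.916 with Mdm2). Within the 12 mock libraries, where actinomycin D has no part, the nearest genes of 10980 were Bcl2l1, an inhibitor of apoptosis (0.983), Id3 (0.981) and Rap1gap2 (0.981) for Cdkn1a, and Fam107b (0.988), Plk2 (0.987) and Mapk4 (0.985) for Mdm2. The points of each correlation share their groups, 16 over the 47 libraries and 4 over the 12 mock libraries, and their scaling.

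The Trp53 level varied between libraries after actinomycin D. At 240 min in clone 5F at day 0 it had 5196.3, 1809.8 and 4237.1 normalised read counts, and at 360 min in clone 7E at day 4 it had 4892.1, 5325.3 and 2398.6.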
